A study of Rattus norvegicus with 15 samples.

Results

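Retinal RNA taken from rats at 7 am, the hour at which the lights would normally come on (0 ZT dark), was compared with retinal RNA from rats left in darkness for 3 further hours, until 10 am (3 ZT dark). The arrays whose titles give these conditions were the members of the comparison, 6 of the 15 arrays of the series, with 3 replicas per condition, each 3 ZT dark array being set against the 0 ZT dark array of its own replica number. All animals were male adult Long Evans rats of about 3 months, a pigmented strain, housed on 12 hours of light from 7 am to 7 pm and kept in darkness overnight. They were killed under infrared light and total RNA was extracted from the retinas, which the design text of the series calls ex vivo. No light was given in either condition, and the clock hour and the length of the darkness advance together, so their parts cannot be told apart. The other conditions were 6 ZT dark (1 pm), 3 ZT light (1000 lux from 7 am to 10 am) and 6 ZT light, with 3 replicas each. They enter the spread of the fit and are set beside some values below, in part without a test. How many animals gave each array is not given in the sources used here, so the p-values speak only to how far these arrays vary, and that variation may be technical.

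The retina holds its own circadian clock, in which the proteins BMAL1 and CLOCK switch on the genes of the period (*Per*) and cryptochrome (*Cry*) families, whose products then repress them. The nuclear receptors REV-ERB (*Nr1d1*, *Nr1d2*) and ROR (*Rora*, *Rorb*) form a second loop on *Bmal1*, and factors such as DBP, TEF, HLF and NFIL3 carry the rhythm to output genes. In photoreceptors the clock drives melatonin synthesis at night through *Aanat*, while dopamine from amacrine cells, made by tyrosine hydroxylase (*Th*), marks the day. Interferon-induced genes, a different group, respond to interferon signalling at a short promoter motif, the interferon-stimulated response element.

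Promoter sequences are shown for the groups to which most of this description belongs, the interferon-induced genes and the clock genes, because each group is known for a shared promoter motif. They are the 250 bases before the RefSeq start in the rat build GRCr8, written along the gene's strand, and capitals mark the motif on either strand.
*Ifi27* (chr6:128355062-128355311, plus strand): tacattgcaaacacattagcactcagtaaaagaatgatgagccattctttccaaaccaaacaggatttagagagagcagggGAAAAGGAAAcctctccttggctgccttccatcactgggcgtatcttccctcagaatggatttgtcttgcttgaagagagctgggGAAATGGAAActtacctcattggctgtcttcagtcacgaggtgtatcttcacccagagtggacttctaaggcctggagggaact
*Irf7* (chr1:205800024-205800273, minus strand): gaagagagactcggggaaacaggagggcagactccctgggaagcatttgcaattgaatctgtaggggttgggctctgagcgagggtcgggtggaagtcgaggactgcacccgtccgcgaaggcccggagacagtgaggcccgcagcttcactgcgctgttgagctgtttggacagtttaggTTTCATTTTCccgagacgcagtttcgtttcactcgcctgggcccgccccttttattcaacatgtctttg
*Rsad2* (chr6:48788121-48788370, minus strand): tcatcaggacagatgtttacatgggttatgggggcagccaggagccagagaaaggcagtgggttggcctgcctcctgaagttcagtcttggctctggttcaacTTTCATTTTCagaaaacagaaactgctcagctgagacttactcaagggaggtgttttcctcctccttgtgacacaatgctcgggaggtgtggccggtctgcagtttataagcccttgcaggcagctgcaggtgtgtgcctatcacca
*Nr1d1* (chr10:84229455-84229704, minus strand): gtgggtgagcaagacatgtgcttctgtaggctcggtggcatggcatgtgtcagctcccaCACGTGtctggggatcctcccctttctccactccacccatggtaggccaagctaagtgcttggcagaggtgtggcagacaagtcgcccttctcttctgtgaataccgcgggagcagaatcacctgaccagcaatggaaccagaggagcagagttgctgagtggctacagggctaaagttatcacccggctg
*Per2* (chr9:99496994-99497243, minus strand): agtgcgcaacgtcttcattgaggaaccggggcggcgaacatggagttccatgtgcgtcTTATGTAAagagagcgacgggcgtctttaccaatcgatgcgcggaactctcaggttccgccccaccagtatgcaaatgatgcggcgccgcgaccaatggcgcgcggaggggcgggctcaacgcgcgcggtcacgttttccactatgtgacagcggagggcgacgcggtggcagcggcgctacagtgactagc
*Ifi27*, *Irf7* and *Rsad2* hold the interferon-stimulated response element, searched as GAAA, any 2 bases and GAAA. It occurs 2 times before *Ifi27*, and it begins at position −69 from the start of *Irf7* and −147 from that of *Rsad2*. *Nr1d1* holds the E-box CACGTG, the site of BMAL1 and CLOCK, and *Per2* the D-box TTATGTAA, the site of DBP and its relatives. Over windows of 300 bases, from 250 before to 50 after each start, the response element was found in 11 of the 17 listed interferon-induced genes with a promoter in the table and in 3.92% of all 33469 promoters. The E-box was found in 4 of 21 clock and clock output genes and in 6.42% of all promoters, and the D-box in 1 of 21 and in 0.893%. The E-box and the D-box were each also found in 1 of the 17 interferon-induced genes. The response element was found in 1 of the 21 clock and clock output genes. The D-box was thus no more frequent in the clock group than in the interferon group. Both strands were searched, none of the 3 motifs is part of another, and a match is a description of the letters, not a site shown to be bound.

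The 15 arrays carried 31042 probe sets that are not controls, in log2 units, and the 6 arrays compared here correlated with each other at 0.981 to 0.996. The median level differed between replica numbers (8.31 and 8.32 in replica 1, 8.60 and 8.62 in replica 2, 8.74 and 8.79 in replica 3) far more than between the 2 conditions of a number. The array for 0 ZT dark replica 1 stood apart in a measure of RNA quality, since its *Actb* probe set at the 3′ end read 2.10 log2 units above that at the 5′ end, against 0.809 to 1.37 in the other 5 arrays. Exactly equal values were shared by the 2 arrays of a replica for 7.03%, 14.1% and 7.09% of probe sets in replicas 1, 2 and 3, and 7618 probe sets (24.5%) were equal in at least 1 replica. The defining markers of retina were present, with the rod gene *Pdc* (phosducin) between 14.92 and 15.27 in the 6 arrays.

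No probe set passed the test. With limma over the 15 arrays, with replica number as a block and Benjamini-Hochberg adjustment over the 31042 probe sets, 0 were called higher (0%) and 0 lower (0%) in 3 ZT dark at an adjusted p under 0.05, and the lowest adjusted p was 1. At an unadjusted p under 0.05, 148 were higher (0.477%) and 241 lower (0.776%), together 389 or 1.25% of those tested. That share lies below the fraction of 0.05 that evenly spread p-values would give. Such a p alone thus does not set a gene apart. The values given below are therefore descriptions, each with its standard error or interval, and every adjusted p in this comparison was 1. Each standard error and interval rests on the spread over all 15 arrays, the light arrays included. Of all probe sets, 26348 (84.9%) had a 95% interval that lay within a ratio of 1.5 in either direction. For 30264 it lay within 1 log2 unit.

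Of the 5 comparisons computed, 3 ZT dark against 0 ZT dark had the smallest spread. The SD of the log2 differences over all probe sets was 0.129, against 0.213 for 6 ZT dark minus 0 ZT dark, 0.193 for 6 ZT dark minus 3 ZT dark, 0.188 for 3 ZT light minus 3 ZT dark and 0.203 for 3 ZT light minus 0 ZT dark. In the same order, 20 probe sets differed by more than 1 log2 unit, against 80, 65, 40 and 50. The shares at an unadjusted p under 0.05 were 1.25%, against 8.73%, 5.55%, 4.59% and 7.68%, with the same median standard error of 0.116, and the adjusted calls were 0, 0, 0, 1 and 1. These comparisons share arrays with one another, and the difference between their spreads was not tested. Both light comparisons include 3 ZT light replica 2, whose *Actb* probe sets differed by 2.40 log2 units, the widest gap of the 15 arrays, and its part in their spread was not tested.

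**Figure D1:**
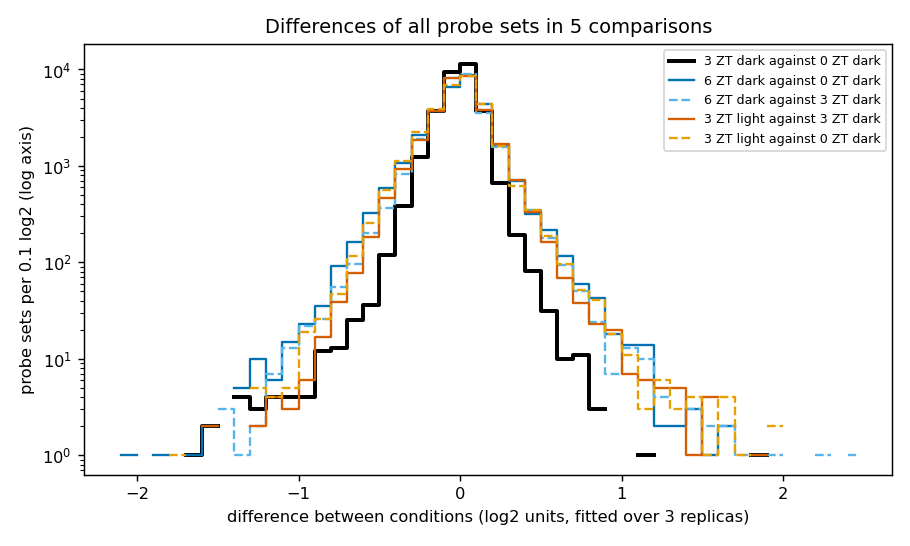
Number of probe sets (log axis) in bins of 0.1 log2 units of the fitted difference between conditions, for 5 comparisons of 3 replicas each. The black line, 3 ZT dark against 0 ZT dark, is the narrowest, with 20 probe sets beyond 1 log2 unit where the others have 40 to 80.

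The replicas did not share a common direction. The SD of the differences was 0.294 in replica 1, 0.199 in replica 2 and 0.228 in replica 3. Across probe sets, which are not independent replicates, the differences of replica 1 correlated at −0.12 with those of replica 2 and at −0.18 with those of replica 3, and those of replicas 2 and 3 at 0.10. Of all probe sets, 2415 (7.78%) were higher in all 3 replicas and 2645 (8.52%) lower in all 3. Levels did not overlap between the conditions for 96 probe sets that were higher in 3 ZT dark (0.309%) and 332 that were lower (1.07%).

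By the rule of ratios that the study used for light, a ratio to the 0 ZT dark sample above 1.6 in all 3 replicas, no probe set was higher after 3 hours of darkness (0%). A ratio below 0.7 in all 3 replicas was found for 5 probe sets (0.0161%): those of *Mx2* and *Ifitm1*, 2 of *Ogn*, and 1 without a gene symbol in the tables used here (1386911_at). In 2 of 3 replicas the ratio was above 1.6 for 15 probe sets and below 0.7 for 153.

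*Mx2*, an antiviral GTPase induced by interferon, read 8.06, 8.63 and 8.31 in the 0 ZT dark arrays of replicas 1, 2 and 3 and 7.16, 7.36 and 7.15 in the 3 ZT dark arrays. Every 3 ZT dark level lay below every 0 ZT dark level, and the 3 ratios averaged 0.465 ± 0.0618 (SD, n = 3). The log2 difference was −1.11 with a standard error of 0.36 (limma, unadjusted p = 0.0101), and leaving out the array of lower RNA quality gave −1.31. Its second probe set differed by −0.29 with a standard error of 0.10.

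*Ifitm1*, which encodes an interferon-induced membrane protein that hinders the entry of viruses, read 7.41, 7.72 and 8.69 at 0 ZT dark and 6.22, 6.43 and 7.11 at 3 ZT dark. The levels did not overlap, and the log2 difference was −1.35 with a standard error of 0.51 (limma, unadjusted p = 0.0239). In 6 ZT dark both genes also read low, with *Mx2* at 7.47, 7.33 and 5.42 and *Ifitm1* at 6.65, 6.87 and 6.42. The step from 3 to 6 ZT dark was −0.48 for *Mx2* (limma, adjusted p = 0.884) and 0.06 for *Ifitm1* (limma, adjusted p = 0.998). Light over the same 3 hours gave levels 0.46 and 0.51 log2 units above those of darkness, with adjusted p of 0.895 and 0.903 by limma.

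The probe set without a symbol was bright, at 13.02, 12.79 and 12.47 at 0 ZT dark and 11.86, 12.01 and 11.89 at 3 ZT dark. Its log2 difference of −0.84, with a standard error of 0.18, had the lowest unadjusted p of all probe sets (limma, 0.000716).

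*Ogn* encodes osteoglycin, a small proteoglycan of connective tissue. Its brightest probe set read 11.68, 11.80 and 9.97 at 0 ZT dark and 9.96, 10.96 and 9.40 at 3 ZT dark, a log2 difference of −1.04 with a standard error of 0.60 (limma, unadjusted p = 0.114). The 2 other probe sets of *Ogn* were lower in replicas 1 and 2 and higher in replica 3, by 0.70 and 0.17. *Fmod* (fibromodulin), of the same family, differed by −1.60, −1.18 and 0.34 in replicas 1, 2 and 3. Over all 19 listed collagens and matrix genes, 7 were higher and 12 lower, and the median difference was −0.03.

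**Figure D2:**
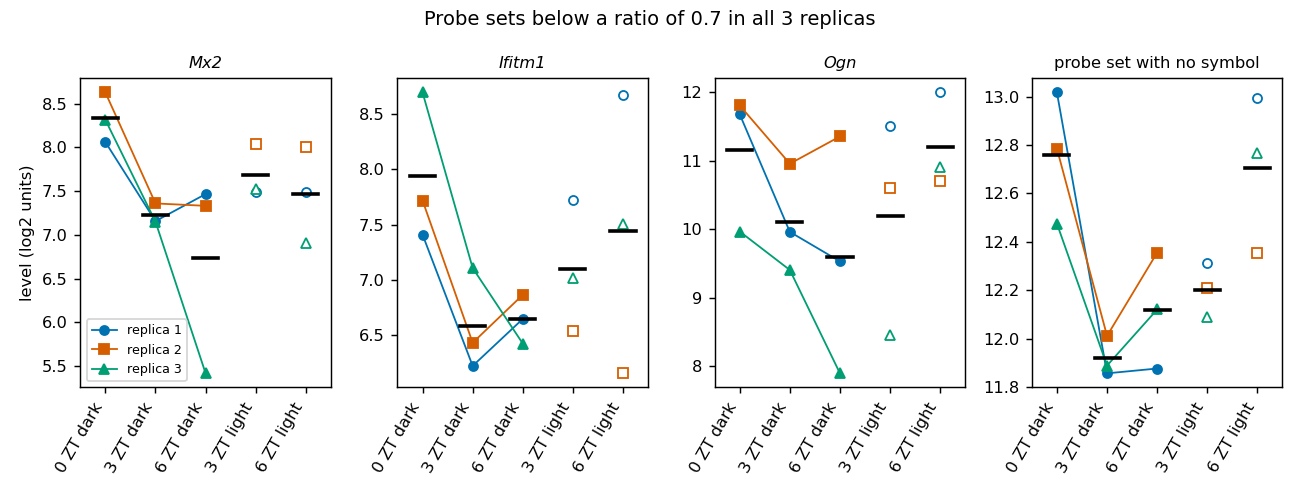
Levels (log2 units) of the brightest *Ogn* probe set and the 3 other probe sets below a ratio of 0.7 in all 3 replicas. Filled symbols joined by lines are the dark conditions, open symbols the light conditions, each symbol is an array and black bars are means (n = 3); for *Mx2* the 3 ZT dark arrays sit between 7.15 and 7.36, all below the 0 ZT dark arrays.

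Beyond 1 log2 unit there were 20 probe sets, 18 lower and 2 higher in 3 ZT dark, 15 of them with a gene symbol. The genes named next were chosen after their values were seen. *Fbln1* (fibulin 1) and *Fbn1* (fibrillin 1), proteins of elastic fibres, and *Enpp2* (autotaxin) had differences of about the same shape. *Fbln1* read 10.78, 10.96 and 7.96 at 0 ZT dark and 7.94, 7.93 and 8.73 at 3 ZT dark. The first of 2 *Fbn1* probe sets read 11.16, 10.87 and 8.84 and then 8.74, 9.05 and 8.90, and *Enpp2* read 12.12, 11.45 and 9.74 and then 10.11, 10.16 and 9.87. In each of the 3 genes only 0 ZT dark replicas 1 and 2 were high, and replica 3 was 0.06 to 0.78 log2 units higher in 3 ZT dark. *Slc13a4*, *Colec12*, *F5* and *Enpp6* likewise differed by −2.34 to −1.19 in replicas 1 and 2 and by −0.10 to 0.31 in replica 3. *Ogn* was also high in those 2 arrays, and the part that their other high genes have in its difference was not tested.

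Among the probe sets that were higher in all 3 replicas, *Mis18a*, which helps to load the centromere histone, had the lowest p. It read 9.75, 7.69 and 9.52 at 0 ZT dark and 10.21, 11.45 and 10.73 at 3 ZT dark, a difference of 1.81 with a standard error of 0.49 (limma, unadjusted p = 0.00385). The size came mainly from 0 ZT dark replica 2, the lowest of the 6 arrays, since the 3 differences were 0.46, 3.76 and 1.21. *Ccng1* (cyclin G1), a target of p53, read 12.56, 12.78 and 12.88 and then 12.76, 13.22 and 13.32. Its difference of 0.36 had a standard error of 0.11 and was followed by 0.17 more between 3 and 6 ZT dark (limma, adjusted p = 0.870). *Insr*, the insulin receptor, read 9.45, 9.35 and 9.19 and then 9.75, 9.60 and 9.95, with no overlap between the conditions (0.43, standard error 0.14). The remaining 9 of the 12 with the lowest p were *Glipr1*, *Ahi1*, *Uri1*, *Ppm1b*, *Sspn*, *Ift122*, *Fam171b*, *Cirbp* and *Prex1*, with differences from 0.18 to 0.45. *Ahi1* and *Ift122* act at the primary cilium, from which the photoreceptor outer segment derives. For 6 of the 9 a dimmer probe set gave the low p and the brightest one differed less. The brightest sets differed by −0.09 for *Ahi1*, 0.07 for *Ift122*, 0.13 for *Uri1*, 0.09 for *Ppm1b*, 0.01 for *Sspn* and 0.07 for *Fam171b*.

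Among those lower in all 3 replicas, *Ppp1r1a*, an inhibitor of protein phosphatase 1 that is switched on by cAMP signalling, had the lowest p of those with a gene symbol. It read 9.46, 9.77 and 9.89 at 0 ZT dark and 8.94, 9.11 and 9.45 at 3 ZT dark, a difference of −0.54 with a standard error of 0.13 (limma, unadjusted p = 0.00187). Its brighter probe set differed by −0.23 with a standard error of 0.31 and was higher in replica 1. *Cxcl14*, a chemokine, read 11.49, 11.27 and 11.58 and then 10.92, 11.19 and 10.86. The levels did not overlap, and the difference was −0.46 with a standard error of 0.12. Its dimmer probe set differed by −0.06 with a standard error of 0.09. *Six6*, a homeobox factor of eye development, read 11.54, 11.54 and 12.02 and then 11.23, 11.34 and 11.61, a difference of −0.30 with a standard error of 0.08. *Pml*, the organiser of nuclear bodies and itself induced by interferon, read 8.69, 8.83 and 8.73 and then 8.48, 8.45 and 8.42 (−0.30, standard error 0.09). Its dimmer probe set differed by −0.05 and was higher in replica 1. The other 8 were *Edc3*, *Uaca*, *Grhl1*, *Cxcl2*, *Nradd*, *Mmgt2*, *Tmem42* and *Slc66a3*, between −0.57 and −0.23. The dimmer probe sets of *Tmem42* differed by 0.08 and 0.15. On the dimmer of its 2 probe sets *Edc3*, a factor of mRNA decapping, was −0.23 from 0 to 3 ZT and 0.41 from 3 to 6 ZT dark, the latter with an unadjusted p of 5.13e-05 and an adjusted p of 0.796 by limma. Its brighter probe set differed by −0.08 from 0 to 3 ZT and was higher in replica 3.

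The core clock genes lay close to 0. Of 15 core clock genes, each by its brightest probe set, 7 were higher and 8 lower at 3 ZT dark, with a median difference of −0.00. Of these brightest sets 0 had an unadjusted p under 0.05 by limma, against 1.25% of all probe sets. The median over all 14217 genes, each by its brightest probe set, was −0.01, with 6521 higher and 7678 lower. The 95% interval lay within a ratio of 1.5 for 14 of the 15, the exception being *Rora*, and within 1 log2 unit for all 15.

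*Per1* read 10.60, 10.65 and 10.76 at 0 ZT dark and 10.57, 10.62 and 10.92 at 3 ZT dark, a difference of 0.03 with a 95% interval from −0.17 to 0.22. *Per2* read 10.77, 10.77 and 10.78 and then 10.58, 10.99 and 10.74, a difference of −0.00 with an interval from −0.48 to 0.48. *Per3* read 8.85, 10.25 and 10.27 and then 9.34, 9.90 and 9.94, higher in replica 1 and lower in the other 2. On these brightest probe sets the levels of the 3 period genes, part of the negative limb of the clock, overlapped between the hours. The intervals bound a change in *Per1* more tightly than one in *Per2* or *Per3*. The dimmer probe sets of *Per2* and *Per3* were higher in all 3 replicas, by 0.20, 0.14 and 0.12 and by 0.18, 0.24 and 0.04. That of *Per3* differed by 0.15 with a standard error of 0.06 (limma, unadjusted p = 0.0376).

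In the positive limb the levels overlapped too. *Bmal1* read 11.20, 11.31 and 11.77 and then 11.10, 11.31 and 11.93 (0.02, interval −0.28 to 0.32). *Clock* differed by −0.07 and its paralog *Npas2* by −0.14, the latter with replicas at −0.09, 0.09 and −0.43. *Cry1* and *Cry2* differed by 0.05 and 0.08. *Rora* and *Rorb*, which act on *Bmal1*, differed by 0.21 and 0.00, the kinases *Csnk1d* and *Csnk1e*, which mark period proteins for decay, by −0.06 and −0.00, and *Timeless* by −0.12.

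*Nr1d1*, whose promoter with its E-box is printed above, had the lowest estimate of the core genes, with levels of 11.01, 11.31 and 11.56 at 0 ZT dark and 11.08, 10.85 and 11.39 at 3 ZT dark and a difference of −0.19 with an interval from −0.57 to 0.19. Its relative *Nr1d2* differed by 0.05, with values exactly equal in replicas 1 and 2. Between 3 and 6 ZT dark *Nr1d1* differed by 0.46 and *Per3* by −0.58, with unadjusted p of 0.0245 and 0.0316 and adjusted p of 0.863 for both by limma.

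The 13 clock output factors read 4 higher and 9 lower, with a median of −0.06 and replica medians of 0.09, −0.17 and −0.12. *Dbp*, an output factor with a wide daily swing in many tissues, read 10.83, 11.87 and 12.47 at 0 ZT dark and 11.50, 11.70 and 12.01 at 3 ZT dark. Its differences in replicas 1, 2 and 3 were 0.67, −0.17 and −0.46, and the fitted difference was 0.01 with an interval from −0.62 to 0.64. *Tef*, *Usp2*, *Tspan4*, *Nfil3* and *Por* had the same signs in the 3 replicas as *Dbp*, so this shape was common in the list. It was not particular to it, since the replica medians of the bipolar cell and lens gene lists had these signs too. *Klf9*, a Krüppel-like factor that also answers to glucocorticoids, differed by −0.14, and *Nfil3*, which represses where DBP activates, by −0.10. The remaining estimates ran from −0.11 (*Por*) to 0.04 (*Bhlhe41*, a repressor of the clock), with *Hlf* at −0.07, *Wee1*, a brake on cell division, at −0.06, *Bhlhe40* at −0.05, *Klf10* at −0.10 and *Klf13* at −0.09.

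**Figure D3:**
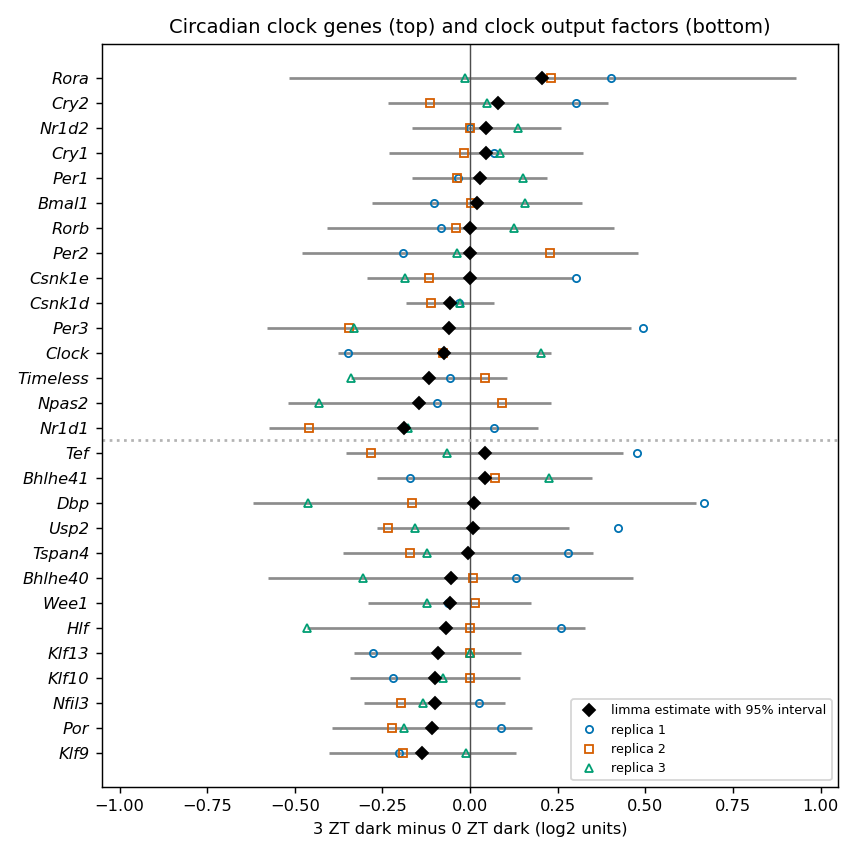
Difference between 3 ZT dark and 0 ZT dark (log2 units) for 15 core clock genes and 13 clock output factors. Diamonds are limma estimates, grey lines 95% intervals and open symbols the 3 replicas; every interval includes 0 and lies within 1 log2 unit.

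Of 13 genes of melatonin and dopamine signalling and of night-time photoreceptors, 8 were higher and 5 lower, with a median of 0.03, and 0 had an unadjusted p under 0.05 by limma. *Aanat*, the enzyme that paces melatonin synthesis, read 8.06, 8.38 and 8.14 and then 8.45, 7.96 and 8.34 (0.05, interval −0.22 to 0.32). *Asmt*, which completes the synthesis, differed by 0.07. *Th* was the furthest from 0 of this list: it read 8.56, 9.46 and 9.72 at 0 ZT dark and 8.89, 8.75 and 9.02 at 3 ZT dark. It differed by 0.32 in replica 1 and by −0.71 in both others, giving −0.36 with a standard error of 0.18 (limma, unadjusted p = 0.0737). *Drd4*, the dopamine receptor of photoreceptors, read 14.60, 14.67 and 14.29 and then 14.55, 14.48 and 14.18, lower in each replica by a small step (−0.12, standard error 0.12). Its 2 dimmer probe sets were higher in replica 1 and lower in replicas 2 and 3. The dopamine receptors *Drd2* and *Drd1* differed by −0.09 and 0.03, and *Adra1b*, an adrenergic receptor, by −0.22. *Slc18a2*, which loads monoamines into vesicles, differed by 0.29 (standard error 0.35), and *Crem*, *Mat2a*, *Slc6a3*, *Ddc* and *Pde4d* lay between −0.08 and 0.06. *Drd2* was followed by a difference of 0.54 between 3 and 6 ZT dark (limma, adjusted p = 0.863).

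Genes of rod photoreceptors read slightly higher. Of 22 genes of rod phototransduction 20 were higher and 2 lower, 12 being higher in all 3 replicas, where 988 of all 14217 genes and 7.78% of all probe sets were. The median difference was only 0.06, and it was 0.02, 0.03 and 0.10 without 0 ZT dark replica 1, 3 ZT dark replica 2 and 0 ZT dark replica 2. In this list 1 gene had an unadjusted p under 0.05. That gene was *Rgs9*, which speeds the shut-off of transducin, at 12.74, 12.70 and 12.53 and then 12.90, 12.71 and 12.98 (0.21, standard error 0.09, limma, unadjusted p = 0.0386). Its dimmer probe set differed by −0.03, with values exactly equal in replicas 1 and 2. *Guca1b*, an activator of guanylyl cyclase, differed by 0.12, 0.09 and 0.10 in the 3 replicas, *Pde6b*, a subunit of the rod phosphodiesterase, by 0.07, 0.06 and 0.15, and *Pdc* by 0.11, 0.13 and 0.06. In 6 ZT dark against the same controls 11 of the 22 were higher. Of 11 cone genes 5 were higher and 6 lower (median −0.03), with the short-wave opsin *Opn1sw* at 0.49, −0.23 and 0.53 in replicas 1, 2 and 3.

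Medians for amacrine, horizontal and ganglion cell genes were below 0, with sizes that depended on single arrays. Of 23 genes of amacrine and horizontal cells 3 were higher and 20 lower (median −0.17), 5 being lower in all 3 replicas, and all 14 genes of ganglion cells were lower (median −0.11), 1 of them in all 3. For neither list did a gene reach an unadjusted p under 0.05 by limma. Without 3 ZT dark replica 3 the 2 medians were −0.04 and −0.02, without 0 ZT dark replica 1 they were −0.08 and −0.04, and the ganglion cell median was −0.22, −0.20 and −0.18 without 3 ZT dark replica 1, 0 ZT dark replica 2 and 3 ZT dark replica 2. *Tfap2b*, a factor of amacrine cells, read 12.69, 12.97 and 12.70 at 0 ZT dark and 12.31, 12.68 and 12.28 at 3 ZT dark (−0.37, standard error 0.25). Its dimmer probe sets, at −0.16 and −0.19, were higher in replica 1 and lower in replicas 2 and 3. *Npy*, a neuropeptide, read 10.67, 10.61 and 10.55 and then 10.41, 10.36 and 10.37, with no overlap (−0.23, standard error 0.14). *Vip*, another neuropeptide, was 0.06, −0.11 and −0.99 in the 3 replicas, so its estimate of −0.35 came from replica 3.

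The ganglion cell list had replica medians of −0.25, 0.11 and −0.32, and so was not lower in replica 2. *Rbpms*, an RNA-binding protein of ganglion cells, differed by −0.93, 0.12 and −0.36, and *Gap43*, a protein of growing axons, by −0.44, 0.14 and −0.40. *Opn4*, the melanopsin of intrinsically photosensitive ganglion cells, differed by −0.01. In a bulk sample fewer cells of a type and less RNA per cell cannot be told apart. Of 10 bipolar cell genes 4 were higher and 6 lower, with replica medians of 0.31, −0.21 and −0.20.

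Interferon-induced genes were lower in 21 of 23 cases, with a median of −0.18 (−0.11 without 0 ZT dark replica 3) and replica medians of −0.14, −0.09 and −0.20. Of the 23, 13 were lower in all 3 replicas, where 1619 of all 14217 genes and 8.52% of all probe sets were, and *Mx2* alone had an unadjusted p under 0.05. The mean level of the 23, less the median of its array, was −0.37, −0.33 and −0.36 in the 0 ZT dark arrays and −0.55, −0.46 and −0.61 in the 3 ZT dark arrays, without overlap. Without that subtraction the means overlapped, at 7.95 to 8.43 and 7.76 to 8.14. The amacrine and horizontal cell list also did not overlap after it, by a narrow margin (lowest 2.264 at 0 ZT dark, highest 2.260 at 3 ZT dark). Neither separation was tested. *Ifitm1* is not among the 23.

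*Isg15*, a ubiquitin-like protein, read 8.32, 8.80 and 8.37 and then 7.96, 8.22 and 8.04, a difference of −0.42 with a standard error of 0.21 (limma, unadjusted p = 0.0727). *Irf9*, part of the factor that binds the response element, differed by −0.24, −0.14 and −0.16 in replicas 1, 2 and 3. *Irf7*, *Ifi27* and *Rsad2*, whose promoters are printed above, differed by −0.18, −0.42 and −0.28, each lower in all 3 replicas. *Ifit1* went the other way, at 0.35, 0.00 and 0.38, and *Ifih1*, a sensor of viral RNA, was 0.09 higher. *Ifit3* and *Gbp2* owed their estimates of −0.38 and −0.30 to replica 3, at −1.28 and −1.13.

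**Figure D4:**
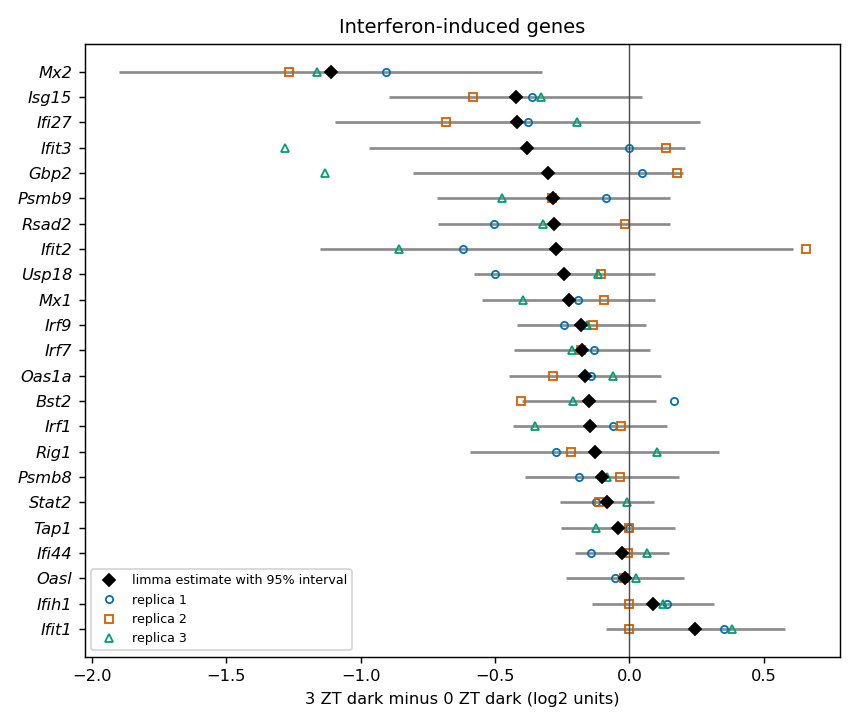
Difference between 3 ZT dark and 0 ZT dark (log2 units) for the 23 interferon-induced genes. Diamonds are limma estimates, grey lines 95% intervals and open symbols the 3 replicas; 21 estimates lie below 0 and only the interval of *Mx2* excludes 0.

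At 6 ZT dark 18 of the 23 were lower than at 0 ZT dark (median −0.22), and at 3 ZT light 19 were (median −0.17). These 3 comparisons share the 0 ZT dark arrays. Between 3 and 6 ZT dark, a comparison without those arrays, 9 were higher and 14 lower, with a median of −0.08. Of 17 genes of microglia and complement, cells and proteins that interferon also acts on, 7 were higher and 10 lower (median −0.05). *Cd74*, the invariant chain of antigen presentation, read 7.80, 8.14 and 7.94 and then 7.57, 7.57 and 7.46 (−0.43, standard error 0.25), and *Lyz2* differed by −0.20, −0.13 and −0.54.

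Lens genes differed more than any other list, in opposite directions between replicas. The 13 crystallins had a median of 1.54 in replica 1, −1.70 in replica 2 and −0.90 in replica 3. Their mean level was 11.55, 12.98 and 12.20 in the 0 ZT dark arrays and 12.78, 11.33 and 11.86 in the 3 ZT dark arrays. *Mip*, the water channel of lens fibre cells, read 7.45, 10.37 and 11.16 and then 9.92, 7.38 and 7.78. The 10 other lens genes had replica medians of 0.89, −0.79 and −0.39. Lens gene levels thus differed between arrays, and whether the lens was removed from the eyes used for the arrays is not given in the sources used here. *Crygb* and *Crygc* went another way than most crystallins in replica 3, at 2.59 and 2.47. The collagens *Col4a1* and *Col4a2*, of basement membranes such as the lens capsule, had differences of 2.22, −1.86 and −0.30 and of 1.40, −1.53 and −0.01. The part of the lens genes in the other differences was not tested.

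Genes of the pigment epithelium and visual cycle, a tissue next to the retina, had medians of −0.23, 0.36 and 0.10 in replicas 1, 2 and 3. *Pmel*, a melanosome protein, was at −0.23, 0.36 and 0.81, and *Lrat*, which stores vitamin A as esters, at −1.27, 0.63 and −0.51. Of the 19 genes 1 was higher in all 3 replicas and 0 lower in all 3. The 16 genes of blood and vessels had medians of 0.13, −0.16 and 0.05.

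Genes that respond quickly to activity or hormones showed little difference. Of 29 immediate early genes 8 were higher and 21 lower, with a median of −0.03. *Klf2* was the 1 gene of these with an unadjusted p under 0.05, at 9.90, 9.84 and 10.02 and then 10.12, 10.08 and 10.09 (0.18, standard error 0.08, limma, unadjusted p = 0.0364). Its dimmer probe sets differed by 0.06, 0.07, −0.08 and 0.12. *Jun* differed by −0.16, −0.14 and −0.23 in the 3 replicas. The 11 feedback genes of ERK signalling had a median of −0.06 and the 19 glucocorticoid-responsive genes one of 0.04, of which *Lcn2* (lipocalin 2) read 7.65, 7.71 and 8.54 and then 7.50, 8.02 and 9.95.

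Cold-inducible RNA-binding proteins, which follow body temperature through the day, were among the genes that read higher. *Rbm3* read 12.46, 12.66 and 13.01 at 0 ZT dark and 12.67, 13.27 and 13.14 at 3 ZT dark (0.31, standard error 0.13, limma, unadjusted p = 0.0386). *Cirbp* had 3 probe sets, at 0.56, 0.47 and 0.44, and only that at 0.44 had a small standard error (0.15, against 0.86 and 0.92). *Hnrnpdl* was 0.15, 0.19 and 0.13 higher. Over all 11 temperature-sensitive RNA-binding proteins 7 were higher and 4 lower, with a median of 0.01, while the 22 heat shock proteins and chaperones were 11 higher and 11 lower.

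Metabolic lists had medians near 0. The 42 cytosolic ribosomal proteins were 21 higher and 21 lower with a median of −0.00, and 41 of them had an interval within a ratio of 1.5. All 42 read lower at 6 ZT dark than at 3 ZT dark (median −0.16). The 69 genes of the respiratory chain were 26 higher and 43 lower (median −0.02), and the 24 of glycolysis and lactate 14 higher and 10 lower (median 0.01). Of 18 genes of cholesterol synthesis and uptake 2 were higher and 16 lower (median −0.08), with *Insig1*, the sterol sensor of the pathway, at −0.18, −0.04 and −0.30. In fatty acid oxidation 14 of 23 were higher and 8 lower, and *Ppara*, its nuclear receptor, was 0.31, 0.08 and 0.22 higher (0.20, standard error 0.09, limma, unadjusted p = 0.0421).

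*Dio2*, the enzyme that makes active thyroid hormone and the gene to which the study turned, read 5.87, 6.56 and 7.12 at 0 ZT dark and 5.87, 6.52 and 7.15 at 3 ZT dark. All of these levels lay below the medians of the arrays (8.31 to 8.79). The difference was −0.00 with a 95% interval from −0.85 to 0.85, which is wider than a ratio of 1.5. The value of replica 1 was exactly equal in both arrays, and replicas 2 and 3 differed by −0.03 and 0.03. The interval rests on the spread over all 15 arrays, the light arrays included, and is much wider than these 3 differences. After 3 hours of light *Dio2* read 7.07, 6.97 and 9.51, a difference of 1.33 from 3 ZT dark (limma, unadjusted p = 0.00553, adjusted p = 0.895). The study's real-time PCR, a different measure, gave a rise of *Dio2* at 3 ZT in rats kept in darkness, where these arrays gave −0.00. The reason for this difference was not tested. Among 21 genes of the thyroid hormone cascade 8 were higher and 13 lower, with a median of −0.00. *Slco1c1*, a transporter of thyroxine, differed by −0.59, −0.17 and −0.24, and *Thra*, a thyroid hormone receptor, by 0.12, −0.22 and −0.51. *Pax4* differed by 0.78, 0.35 and −0.04, *Stat3* by −0.35, −0.33 and 0.06, and *Crh*, corticotropin-releasing hormone, by −0.37, 1.64 and −0.73. None of the 3 kept its sign over the replicas. The dimmer probe set of *Stat3*, at −0.05, 0.15 and 1.06, went the other way in replica 2 and was further above 0 in replica 3. Its estimate was 0.39 against −0.21 for the brightest.

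The remaining lists also lay near 0. The 22 genes of Müller glia and retinal stress were 12 higher and 10 lower (median 0.02), with *Bcl3*, a partner of NF-kappaB, at 0.13 and the potassium channel *Kcnj10* at 0.12. The 20 genes of the unfolded protein response were 11 higher and 9 lower (median 0.00), with *Chac1*, which degrades glutathione, at −0.77, −0.11 and −0.21 in replicas 1, 2 and 3. Of 13 p53 targets 9 were higher and 4 lower (median 0.01), and past *Ccng1* the nearest was *Sesn2* at −0.17. Synaptic vesicle genes were 13 higher and 14 lower (median −0.01), with *Stx1a*, a protein of vesicle fusion, at −0.16, −0.12 and −0.44, and 25 of these 27 read higher at 6 ZT dark than at 3 ZT dark. The dimmer probe set of *Stx1a* was higher in replica 1 and exactly equal in replica 2. The 26 voltage-gated channels were 11 higher and 15 lower (median −0.01). On its brightest probe set *Kcnd2* owed its estimate of −0.39 to replica 1, at −1.18. Its dimmer probe set was lower in all 3 replicas, at −0.36, −0.31 and −0.34 (−0.34, standard error 0.28).

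Over the 31 lists, 26 had a median within 0.1 log2 units of 0 and 25 held no gene with an unadjusted p under 0.05. Of 621 listed genes 6 (0.966%) had such a p, a share below the 1.58% of all 14217 genes: *Klf2*, *Rgs9*, *Rbm3*, *Ppara* and *Ccng1* were higher and *Mx2* lower. The 3 replica medians shared a sign in 7 lists.

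**Figure D5:**
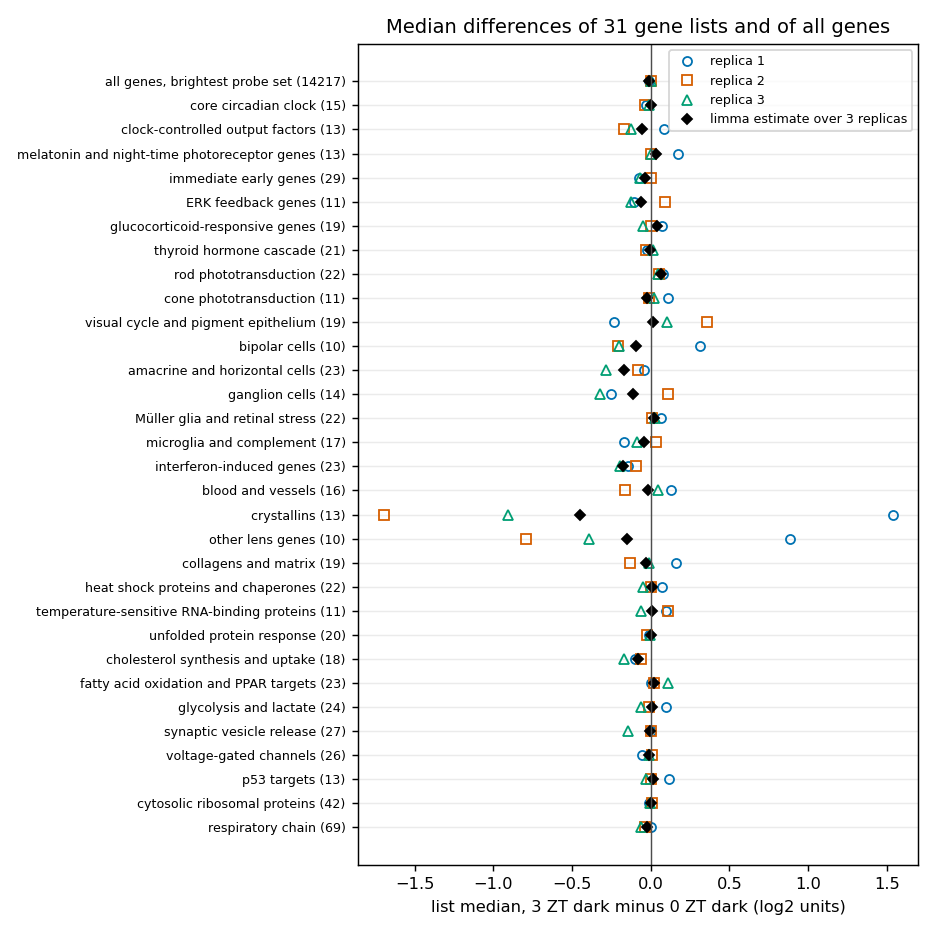
Median difference between 3 ZT dark and 0 ZT dark (log2 units) over the genes of each of 31 lists and over all genes, with the number of genes in brackets. Open symbols are the 3 replicas and diamonds the limma estimates; crystallins spread from −1.70 to 1.54 while most lists stay near 0.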

How the data were processed

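The authors deposited log2 expression values of Affymetrix rat arrays, which are Robust Multi-array Average values per the methods; the software is not given in the sources used here. They were used unchanged, and the number of arrays, not a read depth, limits the precision. The labels give 6 µg of RNA and Trizol, the methods 10 µg and TRI Reagent with RNeasy columns.

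Samples were grouped by their titles. A linear model over the 15 arrays, with condition and a block for replica number, was fitted in limma 3.58.1 (R 4.3.3). Two-sided p-values were adjusted by Benjamini-Hochberg across 31042 probe sets, 57 controls being left out, with a threshold of 0.05. The fit was also run on simulated data with independent noise of equal spread on every array. That run cannot show how the fit behaves with arrays of unequal quality or with exactly equal values. The number was a block because the methods set each replica against its own control. The pairing comes from the titles, not from a stated litter or day. Deviations from the group means correlated at 0.40, 0.60 and 0.66 between 0 and 3 ZT dark arrays of the same number. Those of different numbers correlated at −0.47 to −0.07. Deviations within a group sum to 0, so these negative values follow from the positive ones and are not separate evidence of pairing. What arrays of a number share, animals or processing, is not given in the sources used here. The source of the positive values was not tested. Ratios were taken to the 0 ZT dark array of the same number.

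Probe sets were named through the array annotation, with symbols from RefSeq where the Entrez identifier matched (20764), leaving 20826 probe sets with 1 symbol, 436 with several and 9780 with none. Each listed gene entered with its brightest probe set. The rule for named genes took the 12 probe sets per direction with the lowest p and a common sign in all 3 replicas, those past the ratios, all clock, output and melatonin genes, up to 4 genes with the lowest p of each other list, and *Dio2*, *Pax4*, *Stat3* and *Crh*; every other gene was chosen after its values were seen. The comparison, lists and tests were chosen with earlier results of these data known. Alternatives were no replicate block, quantile and cyclic loess normalization, the 2 conditions only, array quality weights (statmod 1.5.0), the dimmest 33.3% left out, an intensity trend with a robust prior, other ratios, counting each symbol once, all probe sets of a listed gene, and leaving out each array in turn. Leaving out probe sets with exactly equal values was added after seeing the data. Figures were drawn with matplotlib 3.10.9.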

Additional observations from a re-analysis of the deposited data

How the results depend on the processing

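The count of probe sets at an adjusted p under 0.05 was 0 in each direction under every alternative fit, each of the 15 arrays left out included, with a lowest adjusted p between 0.997 and 1. Counts at an unadjusted p under 0.05 (148 higher and 241 lower) moved more. Without the replicate block, that is without the pairing, they were 4 higher and 31 lower. With only the 2 conditions they were 230 and 632, and with array quality weights 556 and 582. The higher count became 52 without the dim probe sets, 95 without the equal values and 90 with symbols counted once. Leaving out 1 array gave 109 to 483 higher and 191 to 559 lower; the counts went beyond 1.5 times without 0 ZT dark replica 2 (483 and 559), without 3 ZT dark replica 1 (341 and 391) and, for the higher ones, without 3 ZT light replica 2 (267).

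Of the ratio counts (0 higher and 5 lower), the higher count was 2 without the replicate block and 2 at a ratio of 1.3. The lower count was 26 without the block, 12 at a ratio of 1.3, 1 at a ratio below 0.5 (*Ifitm1*) and 3 with symbols counted once. Using only 2 of the replicas gave 1 to 10 higher and 47 to 71 lower, since fewer ratios then have to pass.

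Of 179 named probe sets 0 were called under any alternative. The 31 with an unadjusted p under 0.05 turned sign under none of them, and 41 of the other 148 turned under at least 1. The interferon median lay between −0.21 and −0.11, the rod median between 0.02 and 0.10, the amacrine and horizontal cell median between −0.21 and −0.04 and the ganglion cell median between −0.22 and −0.02, none of them turning sign. The crystallin median of −0.45 was 0.00 without 0 ZT dark replica 2 and 0.09 without 3 ZT dark replica 2, and that of the other lens genes was 0.00 without 0 ZT dark replica 2. The cause of these moves was not tested. With 3 arrays per condition the median standard error of a probe set was 0.116, and list medians were not tested.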
